A study of Mus musculus with 9 samples.

Results

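Of the 55401 genes counted in mouse calf muscle, 9 that belong to lymphocyte-attracting chemokine axes were chosen by symbol: the CXCR3 ligands Cxcl9 and Cxcl10 with their receptor gene Cxcr3, the ligand Ccl5, the pair Cxcl13 and Cxcr5, the pair Cxcl16 and Cxcr6, and the ligand Cxcl14. The rule that names them uses no measured value, and all 9 passed the expression filter. RNA was sequenced from the gastrocnemius of wild-type FVB mice, which were 2 to 3 months old per the growth protocol. The muscle had received saline, an adeno-associated virus carrying green fluorescent protein (AAV-GFP), or a virus carrying that protein and a form of MBNL1 (AAV-GFP-MBNL1Δ), and was collected 7 weeks later. MBNL1 is a splicing regulator of muscle, and the series title speaks of a decoy RNA-binding protein for expanded CUG repeats, so AAV-GFP-MBNL1Δ is also called the decoy vector here. Each of the 3 groups held 3 libraries. The sources used here do not give the serotype, promoter or dose of the vectors. All mice were wild type, so the decoy was measured here in muscle without a disease repeat. Whether the libraries of a group stem from different mice is not stated, and a p-value therefore reflects the spread among these libraries, which may be technical.

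Chemokines are small secreted proteins that guide leukocytes through G-protein-coupled receptors. CXCL9 and CXCL10 are made by macrophages, endothelium and other cells after interferon-gamma and attract activated T cells and natural killer cells through CXCR3, while CCL5, made largely by activated T cells and natural killer cells, acts through receptors that include CCR1 and CCR3. CXCL13 draws B cells and follicular helper T cells through CXCR5, the membrane-bound CXCL16 of macrophages and dendritic cells is read by CXCR6 on T cells, and CXCL14 is a constitutively made chemokine of epithelia and other tissues whose receptor is debated. Normal skeletal muscle holds few lymphocytes, and their entry is a known feature of muscle inflammation.

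The 9 genes lie on chromosomes 5, 9, 11, 13 and X of GRCm38. Cxcl9 (chr5:92321347-92328079) and Cxcl10 (chr5:92346638-92348889) are neighbours on the minus strand with 18558 bp between them, and Cxcl13 (chr5:95956951-95961068) lies on the same chromosome. Cxcr3 (chrX:101731535-101734269) is X-linked. RefSeq's promoter table (GRCm38.p6) held 6 of the 9 genes, all but Ccl5, Cxcr5 and Cxcl16. Each promoter was searched on both strands, from 250 bases before to 50 bases after the RefSeq start, for TTCNNNGAA (a gamma-activated site), GAAANNGAA (the core of the interferon-stimulated response element) and the NF-kappaB consensus. Of 32851 mouse promoters of that length, 8.3%, 8.56% and 4.51% held a match. The 250 bases before the start are shown for the neighbours Cxcl9 and Cxcl10, which ranked the vector libraries alike, and for Cxcl14, which ranked them otherwise, with each match in capitals.
Cxcl9, chr5:92328080-92328329, minus strand: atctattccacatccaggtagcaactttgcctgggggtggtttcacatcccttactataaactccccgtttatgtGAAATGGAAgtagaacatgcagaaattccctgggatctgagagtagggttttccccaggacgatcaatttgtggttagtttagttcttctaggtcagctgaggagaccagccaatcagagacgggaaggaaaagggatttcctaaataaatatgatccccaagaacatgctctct
Cxcl10, chr5:92348890-92349139, minus strand: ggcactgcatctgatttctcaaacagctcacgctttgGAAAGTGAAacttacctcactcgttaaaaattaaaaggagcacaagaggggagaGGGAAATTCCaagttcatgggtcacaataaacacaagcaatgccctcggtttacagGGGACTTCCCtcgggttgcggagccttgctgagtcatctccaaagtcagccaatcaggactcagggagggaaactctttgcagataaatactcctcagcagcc
Cxcl14, chr13:56296552-56296801, minus strand: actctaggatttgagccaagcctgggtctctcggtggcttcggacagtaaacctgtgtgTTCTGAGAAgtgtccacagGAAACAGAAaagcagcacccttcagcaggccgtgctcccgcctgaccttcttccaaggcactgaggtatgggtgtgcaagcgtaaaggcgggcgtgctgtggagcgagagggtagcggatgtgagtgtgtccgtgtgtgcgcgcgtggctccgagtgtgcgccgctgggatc
Cxcl9 held 1 response-element core, at −175 to −167 from the start. Cxcl10 held 1 such core at −213 to −205 and 2 NF-kappaB matches, at −159 to −150 and −103 to −94. Cxcl14 held a gamma-activated site at −191 to −183 and a response-element core at −172 to −164, and no NF-kappaB match. No match overlapped another. Cxcr3, Cxcl13 and Cxcr6 held none of the 3 motifs in this window. A core was thus present both in the pair that was high in the vector libraries and in Cxcl14. A match is a description of letters and not a measured site.

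Libraries held 44603618 to 76970849 gene counts, so that 1 count was worth 0.0125 to 0.0221 CPM. CPM values are counts relative to the library total after TMM scaling. The 10 skeletal muscle markers summed to 130200 to 158500 CPM in the saline libraries, 77750 to 128300 in AAV-GFP and 135500 to 156700 in AAV-GFP-MBNL1Δ. The library AAV-GFP 2 stood apart, with the lowest muscle sum and 17.7% of its counts in its 10 most abundant genes. Sex-linked genes split the groups. Xist ranged from 105 to 136 CPM over the 6 libraries of the saline and AAV-GFP groups and from 0.0182 to 0.0902 over those with the decoy vector. Ddx3y, on the Y chromosome, ranged from 82.7 to 84.6 CPM with the decoy vector. AAV-GFP 1 carried low Y-linked counts (Ddx3y 2.58, Eif2s3y 1.11 and Uty 0.741 CPM), whereas the other 5 libraries with Xist held 0.409 to 0.693 of Ddx3y, 0 of Eif2s3y and 0 to 0.0221 of Uty. The decoy vector and the sex pattern of the libraries cannot be told apart in any comparison with AAV-GFP-MBNL1Δ.

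The interferon-induced ligands of CXCR3 ranged widely. Cxcl9 stood at 0.534, 0.121 and 0.182 CPM in saline 1 to 3, at 88.2, 296 and 14.2 in AAV-GFP 1 to 3, and at 19.0, 20.1 and 6.10 in AAV-GFP-MBNL1Δ 1 to 3. All 6 vector libraries lay above all saline libraries, but AAV-GFP 3 lay below 2 of the 3 AAV-GFP-MBNL1Δ libraries, so the vector groups overlapped. Within AAV-GFP, the highest library held 20.8 times the lowest. Cxcl10 stood at 0.116, 0.151 and 0.0780 CPM in saline, at 16.7, 30.6 and 3.32 in AAV-GFP, and at 3.61, 3.89 and 1.24 in AAV-GFP-MBNL1Δ. The order of the vector libraries was that of Cxcl9. Cxcl10 shares 133 exon bases with Art3 on the opposite strand (82.4 to 176 CPM), and without the strand setting of the counting, which the sources used here do not state, reads of the shared bases cannot be assigned to either gene with certainty.

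Their receptor gene was scarce. Cxcr3 gave 12, 4 and 3 counts in saline 1 to 3, or 0.173, 0.0606 and 0.0390 CPM. It stood at 3.47, 8.20 and 0.620 CPM in AAV-GFP and at 0.932, 1.09 and 0.539 in AAV-GFP-MBNL1Δ. Again each vector library lay above each saline library, and AAV-GFP 3 fell between the second and the lowest of the AAV-GFP-MBNL1Δ libraries.

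Ccl5 was nearly silent without a vector. It gave 3, 1 and 6 counts in saline 1 to 3, a pooled level of 0.0471 CPM with a 95% Poisson interval of 0.0226 to 0.0867 that covers counting error only. It stood at 7.70, 29.7 and 1.28 CPM in AAV-GFP and at 2.47, 2.78 and 1.03 in AAV-GFP-MBNL1Δ. AAV-GFP 2 was high, and AAV-GFP 3 again lay among the AAV-GFP-MBNL1Δ libraries.

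The B-cell pair was also higher in every vector library than in saline. Cxcl13 stood at 0.549, 0.621 and 0.325 CPM in saline, at 27.6, 40.4 and 2.35 in AAV-GFP, and at 11.4, 11.2 and 3.09 in AAV-GFP-MBNL1Δ. Here AAV-GFP 3 was the lowest of the 6 vector libraries, though above saline. Cxcr5, the receptor of B cells and follicular helper T cells, gave 2, 0 and 2 counts in the saline libraries, a pooled 0.0188 CPM (95% Poisson interval 0.00514 to 0.0483). It stood at 1.45, 2.02 and 0.266 CPM in AAV-GFP and at 0.541, 0.746 and 0.165 in AAV-GFP-MBNL1Δ. AAV-GFP 3 rested on 12 counts and AAV-GFP-MBNL1Δ 3 on 11. Cxcr5 shares 110 exon bases with Bcl9l on the opposite strand (36.3 to 69.9 CPM).

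Cxcl16 had the most counts in saline of the 8 genes other than Cxcl14, 111 to 121 a library. It stood at 1.75, 1.68 and 1.52 CPM in saline, at 16.1, 50.04 and 5.03 in AAV-GFP, and at 5.50, 5.62 and 2.71 in AAV-GFP-MBNL1Δ. The saline libraries differed by at most 1.15-fold, and all vector libraries lay above them. Cxcl16 shares 552 exon bases with Zmynd15 on the opposite strand, which stood at 0.416 to 0.560 CPM in saline, 0.886 to 5.48 in AAV-GFP and 0.509 to 0.902 in AAV-GFP-MBNL1Δ. The part of those shared bases in either gene's values was not tested. Its receptor gene Cxcr6 gave 4, 4 and 6 counts in saline, or 0.0577, 0.0606 and 0.0780 CPM. It stood at 2.45, 8.09 and 0.399 CPM in AAV-GFP and at 0.902, 1.47 and 0.464 in AAV-GFP-MBNL1Δ. AAV-GFP 3 was the lowest vector library for Cxcr6, as for Cxcl13. Cxcr6 lies inside Fyco1 on the opposite strand with 0 shared exon bases.

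Cxcl14 had another pattern. It stood at 40.5, 29.4 and 23.8 CPM in saline, at 35.1, 43.8 and 25.1 in AAV-GFP, and at 56.8, 76.1 and 59.6 in AAV-GFP-MBNL1Δ. The saline and AAV-GFP libraries overlapped, and all 3 AAV-GFP-MBNL1Δ libraries lay above the other 6. AAV-GFP 2, the highest library for each of the other 8 genes, ranked here behind every library with the decoy vector.

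**Figure D1:**
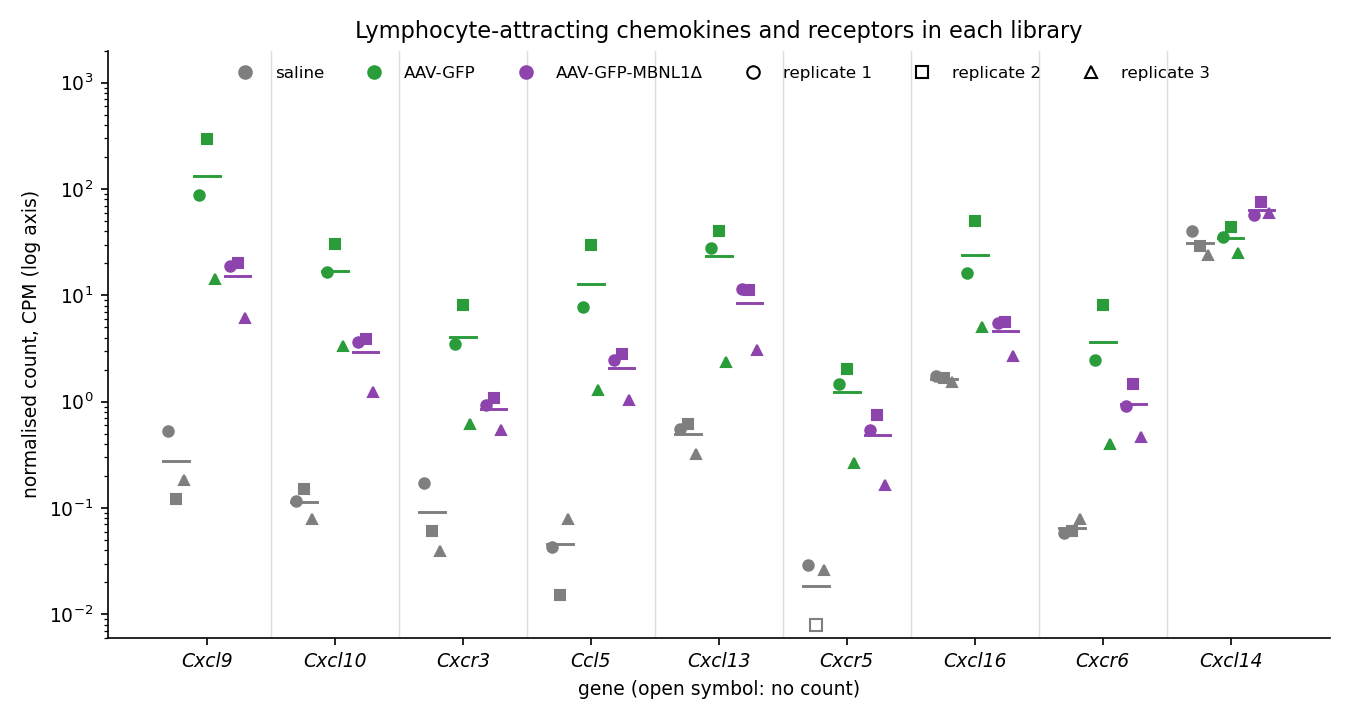
Normalised count (CPM, log axis) of the 9 genes in each library. Points are libraries, coloured by group with a symbol per replicate, short lines are group means, and the open symbol marks the library without a Cxcr5 count. For 8 genes all vector libraries lie above saline with a wide spread in AAV-GFP, while for Cxcl14 only the AAV-GFP-MBNL1Δ libraries stand higher.

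Per length of exon, as CPM per kilobase (RPKM), the genes can be set beside each other. In saline, Cxcl14 was the most abundant, at 17.1 ± 4.66 RPKM (SD, n = 3), and the other 8 lay between 0.00549 (Cxcr5) and 0.546 (Cxcl16). In AAV-GFP, Cxcl9 had the highest mean, 44.1 ± 48.5 RPKM, followed by Cxcl13 (20.4 ± 16.8), Cxcl14 (19.0 ± 5.14) and Ccl5 (13.4 ± 15.5). Those 4 neighbours did not differ beyond their spread. Cxcl16 (7.86 ± 7.76) and Cxcl10 (7.48 ± 6.05) came next, then the receptors Cxcr3 (2.37 ± 2.21), Cxcr6 (1.89 ± 2.06) and Cxcr5 (0.374 ± 0.269). In AAV-GFP-MBNL1Δ, Cxcl14 led again at 35.1 ± 5.70 RPKM, above Cxcl13 (7.43 ± 4.11) and Cxcl9 (4.99 ± 2.58), which overlapped. Ccl5 (2.18 ± 0.971), Cxcl16 (1.53 ± 0.545) and Cxcl10 (1.29 ± 0.646) lay within their spread of each other, and Cxcr3 (0.494 ± 0.164) and Cxcr6 (0.490 ± 0.262) were alike in mean and above Cxcr5 (0.145 ± 0.0884). In each group every ligand had a mean above that of its own receptor gene in the 3 pairs except in saline, where Cxcl10 (0.0511 ± 0.0163) and Cxcr3 (0.0525 ± 0.0416) overlapped.

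The first comparison asks what the control vector did to wild-type muscle. In AAV-GFP against saline, 8 of the 9 genes were higher in all 3 libraries without overlap, and 14.7% of the 18514 tested genes were so. The fitted log2 fold change was 8.89 (SE 1.36) for Cxcl9, 7.19 (SE 0.98) for Cxcl10 and 5.49 (SE 0.997) for Cxcr3. It was 8.05 (SE 1.35) for Ccl5, 5.56 (SE 1.06) for Cxcl13 and 5.94 (SE 1.06) for Cxcr5. Cxcl16 gave 3.85 (SE 0.77) and Cxcr6 5.76 (SE 1.13), whereas Cxcl14 gave 0.15 (SE 0.25). None of the 9 passed an adjusted p under 0.05 in edgeR, where 0% of tested genes passed. The 8 genes had an adjusted p of 0.0841, the lowest value, which many other genes shared, and Cxcl14 had 0.719. By unadjusted p the 8 ranked from 4 (Cxcl10) to 168 (Cxcl16) among the 18514 genes. At an unadjusted p under 0.05 in edgeR, 8 of the 9 were higher, against 15.6% of tested genes. DESeq2 called the same 8 (8.98% of tested genes higher) and so did limma-voom weighted by library quality (16.6%), while limma-voom without weights called 0. The edgeR count turned on AAV-GFP 3, the lowest library of its group for these 8 genes: without it the same 8 were called and 14.3% of tested genes were called higher. The sizes turned on AAV-GFP 2, the highest library: without it the log2 fold change was 7.49 for Cxcl9, 6.42 for Cxcl10, 4.47 for Cxcr3 and 6.51 for Ccl5. It was then 4.90 for Cxcl13, 5.39 for Cxcr5, 2.66 for Cxcl16 and 4.4 for Cxcr6, and 0 of the 9 were called.

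For the 8 genes other than Cxcl14, the decoy vector differed from the same saline libraries by smaller fitted values than AAV-GFP did, and its libraries had a smaller SD in CPM. For Cxcl14 both were larger. All 9 genes lay above saline without overlap, as did 22.7% of tested genes, and 6 of the 9 rose at an adjusted p under 0.05, against 4.76% of tested genes. On the log2 scale, the largest fitted rise was that of Cxcl9, by 5.75 (SE 1.26, adjusted p = 0.0291). Cxcl10 rose by 4.65 (SE 0.93, adjusted p = 0.0217), Ccl5 by 5.42 (SE 1.32, adjusted p = 0.0406) and Cxcl13 by 4.10 (SE 1.01, adjusted p = 0.0420). Cxcr5 rose by 4.54 (SE 1.11, adjusted p = 0.0395), from the 4 counts in saline, and Cxcl14 by 1.04 (SE 0.25, adjusted p = 0.0372). The receptors Cxcr3, at 3.21 (SE 0.98, adjusted p = 0.0787), and Cxcr6, at 3.80 (SE 1.11, adjusted p = 0.0711), missed the threshold, as did Cxcl16 at 1.48 (SE 0.72, adjusted p = 0.238). DESeq2 called 8 of the 9 (8.65% of tested genes higher) and limma-voom with library weights 7 (15.4%), while limma-voom without weights called 1, Cxcl14. The edgeR calls depended on single libraries. Leaving out saline 2, saline 3, AAV-GFP-MBNL1Δ 1 or AAV-GFP-MBNL1Δ 2 left 0 of the 9 called, beside 1.65%, 2.17%, 2.56% and 2.65% of tested genes called higher. Leaving out saline 1 left 1 (Cxcl14, beside 1.83% of tested genes), AAV-GFP-MBNL1Δ 3 left 1 (Cxcl10, beside 1.66%) and AAV-GFP 1 left 2 (Cxcl9 and Cxcl10, beside 3.28%). Without AAV-GFP 2, 7 were called beside 10.4% of tested genes, and without AAV-GFP 3, 8 beside 6.32%. Both comparisons use the same saline libraries and are not independent.

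Set against each other, the vectors differed past the threshold for 3 of the 9 genes. In AAV-GFP-MBNL1Δ against AAV-GFP, Cxcl10 fell by 2.54 on the log2 scale (SE 0.73, adjusted p = 0.0439) and Cxcl16 fell by 2.37 (SE 0.71, adjusted p = 0.0489), while Cxcl14 rose by 0.89 (SE 0.25, adjusted p = 0.0400). These are 2 of 9 lower beside 10.3% of tested genes and 1 of 9 higher beside 10.8%. The other fitted values were −3.15 for Cxcl9 (SE 0.98, adjusted p = 0.0532), −2.27 for Cxcr3 (SE 0.80, adjusted p = 0.0736) and −2.63 for Ccl5 (SE 0.94, adjusted p = 0.0758). Cxcl13 gave −1.46 (SE 0.85, adjusted p = 0.231), Cxcr5 −1.39 (SE 0.73, adjusted p = 0.186) and Cxcr6 −1.96 (SE 0.87, adjusted p = 0.129). Only Cxcl14 had vector groups that did not overlap, with AAV-GFP-MBNL1Δ above (19.2% of tested genes). None of the 9 lay below without overlap, where 19.2% of tested genes did. The overlap came from AAV-GFP 3. Without AAV-GFP 3 all 8 were called lower (22.1% of tested genes lower) and Cxcl14 was not called. Only Cxcl14 was called without saline 1, saline 3 or AAV-GFP 2, beside 7.37%, 8.2% and 11% of tested genes higher, and 0 of the 9 without saline 2, AAV-GFP 1 or any 1 of the AAV-GFP-MBNL1Δ libraries. Without AAV-GFP 2 the log2 fold change was −1.76 for Cxcl9, −1.78 for Cxcl10, −1.27 for Cxcr3 and −1.10 for Ccl5. It was then −0.81 for Cxcl13, −0.87 for Cxcr5, −1.20 for Cxcl16, −0.62 for Cxcr6 and 1.10 for Cxcl14. The median log2 fold change of the 9 genes with all libraries was 5.76, 4.10 and −2.27 in the 3 comparisons, beside −0.0142, 0.0156 and −0.0578 over all tested genes.

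**Figure D2:**
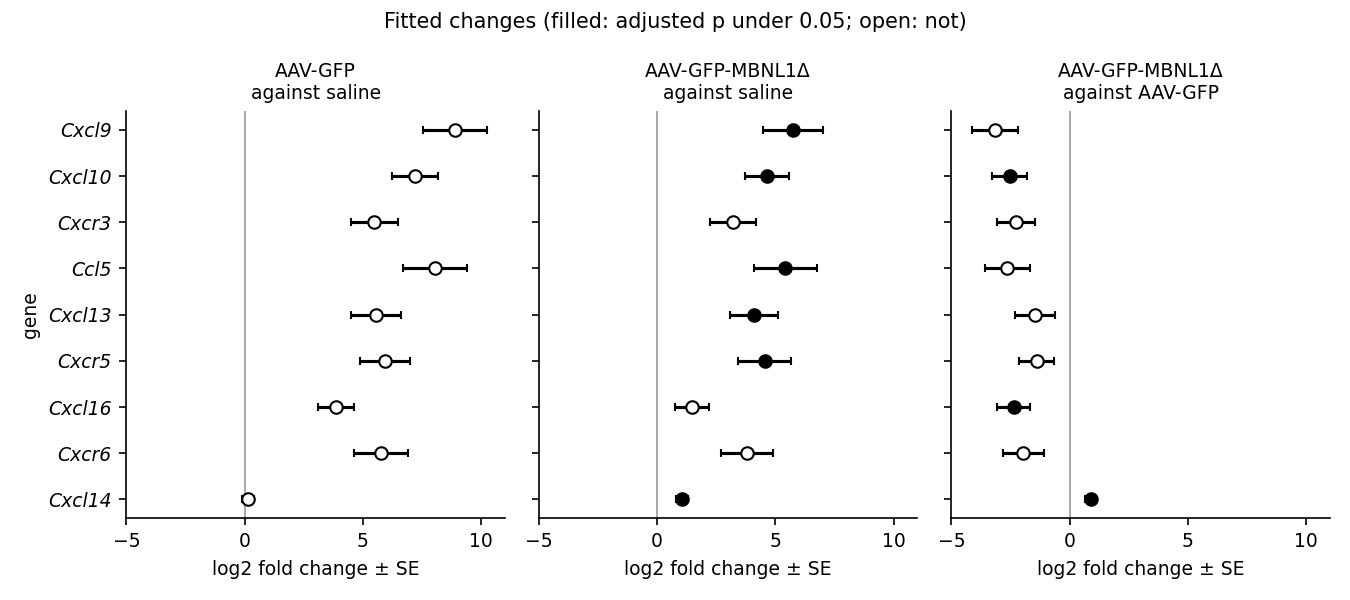
Fitted log2 fold change of each gene with its standard error in the 3 comparisons (edgeR, 9 libraries). Filled points have an adjusted p under 0.05. The 8 genes other than Cxcl14 lie to the right against saline and to the left between the vectors. Against saline, their points are all open in AAV-GFP, and those of Cxcr3, Cxcl16 and Cxcr6 are open in AAV-GFP-MBNL1Δ. Cxcl14 is near 0 in AAV-GFP against saline.

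The 8 genes kept nearly the same order of libraries. For Cxcl9, Cxcl10, Cxcr3, Ccl5, Cxcr5 and Cxcl16 the order from the top was AAV-GFP 2, AAV-GFP 1, AAV-GFP-MBNL1Δ 2, AAV-GFP-MBNL1Δ 1, AAV-GFP 3, AAV-GFP-MBNL1Δ 3 and then saline. Cxcl13 and Cxcr6 differed only in placing AAV-GFP 3 last among the vector libraries, and Cxcl13 also in exchanging AAV-GFP-MBNL1Δ 1 and 2. Over the 9 libraries, Pearson's r of log2 CPM was 0.914 to 0.988 in the 28 pairs among these 8 genes. Cxcl14 had an r of 0.229 to 0.519 with them. These values describe 9 points that fall into groups and share library depth and tissue composition, so they carry no p.

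Summed markers of lymphocytes and macrophages were also higher in every vector library than in saline. The 12 T-cell markers summed to 2.41 to 3.44 CPM in saline, 8.94 to 102 in AAV-GFP and 8.05 to 20.4 in AAV-GFP-MBNL1Δ. Cd8a had no count in any saline library. The 8 natural killer cell markers summed to 0.299 to 0.433, 4.69 to 66.5 and 2.23 to 6.60 CPM, and the 9 B-cell markers to 0.257 to 0.650, 1.73 to 51.9 and 2.37 to 8.78. The 9 macrophage markers were present in every library and summed to 76.2 to 95.4 CPM in saline, 162 to 1561 in AAV-GFP and 132 to 201 with the decoy vector. In the comparison of the decoy vector with saline, 4 of 12 T-cell markers (Cd3e, Cd8b1, Lck and Cd6) rose in edgeR. So did 2 of 8 natural killer cell markers (Ncr1 and Nkg7), beside 4.76% of tested genes. EdgeR called 0 of the 9 B-cell and 0 of the 9 macrophage markers there. At an unadjusted p under 0.05, 6 B-cell markers and 1 macrophage marker were higher (13.1% of tested genes). DESeq2 called 6 and 0 (8.65% of tested genes higher), limma-voom 0 and 0, and its weighted form 0 and 4 (15.4%). In AAV-GFP against saline edgeR called 0 of the markers of these 4 lists, although every marker was higher at an unadjusted p under 0.05 (15.6% of tested genes). DESeq2 called 12 T-cell, 8 natural killer cell, 8 B-cell and 8 macrophage markers there (8.98% of tested genes higher). Limma-voom called 0, and its weighted form every marker of the 4 lists (16.6%). Between the vectors, edgeR called 0 T-cell, 2 natural killer cell (Klrk1 and Gzma), 0 B-cell and 1 macrophage marker (Fcgr1), all lower, beside 10.3% of tested genes. At an unadjusted p under 0.05, 7 T-cell, 8 natural killer cell, 3 B-cell and 7 macrophage markers were lower, beside 4207 of 18514 tested genes. In the same order DESeq2 called 6, 5, 0 and 7, limma-voom 0 of every list and its weighted form 9, 8, 6 and 7. The share of all tested genes is not given for these tools between the vectors, so these counts are not read against other genes. In bulk muscle, more cells of a type and more RNA per cell cannot be told apart, and the part of cell numbers in the chemokine values was not tested.

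**Figure D3:**
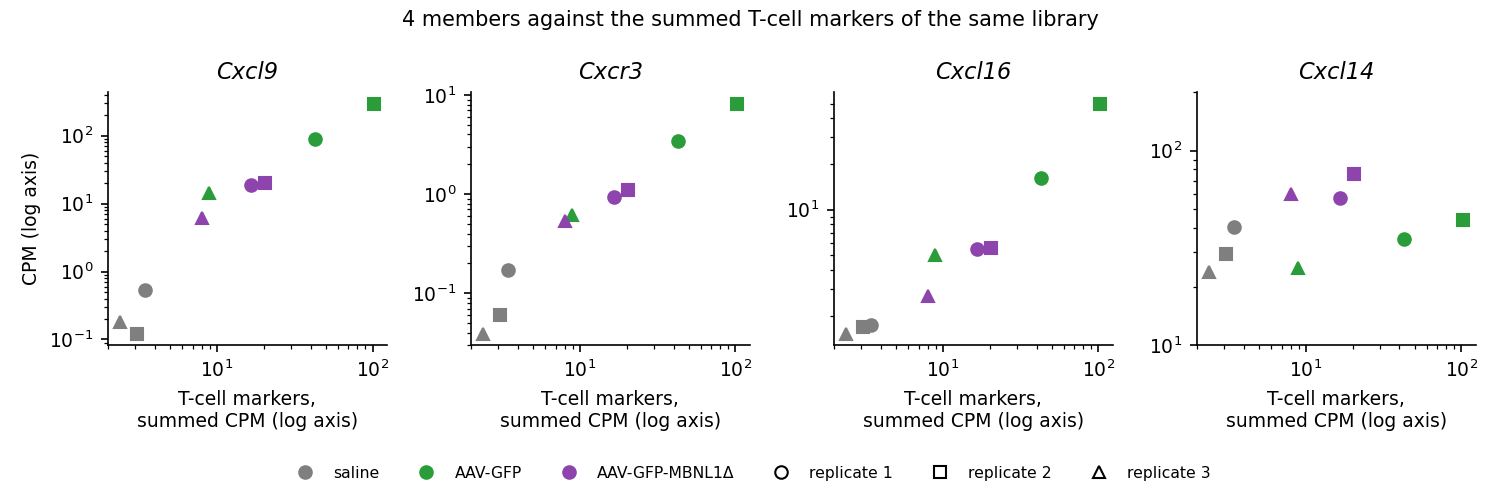
Level of 4 genes against the summed T-cell markers of the same library (CPM, both axes logarithmic), 9 libraries coloured by group with a symbol per replicate. Cxcl9, Cxcr3 and Cxcl16 climb with the T-cell sum from saline to AAV-GFP 2, while Cxcl14 is highest in AAV-GFP-MBNL1Δ at middle T-cell sums.

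Ratios within a library, which do not depend on its scaling, showed where the genes parted. In each library, 0.5 count was added to each gene. The 2 ligands together held 3.68, 4.22 and 6.0 counts per Cxcr3 count in saline 1 to 3, 30.2, 39.8 and 27.8 in AAV-GFP, and 24.0, 21.8 and 13.5 in AAV-GFP-MBNL1Δ. The 3 groups did not overlap: ligand over receptor was highest in AAV-GFP, AAV-GFP 3 included, intermediate in AAV-GFP-MBNL1Δ and lowest in saline. On the log2 scale the group means were 2.18 ± 0.36, 5.01 ± 0.27 and 4.26 ± 0.45 (SD, n = 3). Each of the 3 comparisons had an exact two-sided permutation p of 0.1, the smallest that 3 against 3 allows, and an adjusted p of 0.162 over the 21 ratio tests. No ratio could therefore pass 0.05, and groups that do not overlap are given as a description.

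The ratio of Cxcl9 to Cxcl10 was nearly constant in AAV-GFP-MBNL1Δ, at 5.25, 5.15 and 4.88. It was 5.29, 9.7 and 4.27 in AAV-GFP, with AAV-GFP 2 high. In saline it was 4.41, 0.81 and 2.23, from few counts. The vector groups overlapped (log2 difference −0.24, exact permutation p = 0.7).

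Ratios to the T-cell sum depend on Cd247, which made up 46.5% to 62.7% of that sum in saline, 10.6% to 19.6% in AAV-GFP and 11% to 13.5% in AAV-GFP-MBNL1Δ. Each was therefore repeated without Cd247, a setting chosen after seeing the data. With all 12 markers, Cxcr3 per T-cell marker count was 0.0512, 0.0214 and 0.0183 in saline, 0.0808, 0.0802 and 0.0695 in AAV-GFP, and 0.0566, 0.0536 and 0.0672 in AAV-GFP-MBNL1Δ. The groups did not overlap, with AAV-GFP highest and a log2 difference of −0.38 between the vectors (exact permutation p = 0.1). Without Cd247 it was 0.121, 0.0552 and 0.0335 in saline, 0.0862 to 0.0921 in AAV-GFP and 0.062 to 0.0761 in AAV-GFP-MBNL1Δ, so saline overlapped both vector groups. The log2 difference of AAV-GFP from saline went from 1.5 to 0.56, and that of AAV-GFP-MBNL1Δ from 1.11 to 0.14. Ccl5 per T-cell marker count was 0.0143, 0.00714 and 0.034 in saline, 0.179, 0.29 and 0.143 in AAV-GFP, and 0.149, 0.136 and 0.128 in AAV-GFP-MBNL1Δ. The log2 differences from saline were 3.68 for AAV-GFP and 3.18 for AAV-GFP-MBNL1Δ, and 2.75 and 2.21 without Cd247, where both vector groups still lay above saline. The vectors overlapped (−0.50, exact permutation p = 0.2). The median log2 fold change of the 12 single markers was 5.61 and 3.90 against saline, beside 8.05 and 5.42 for Ccl5 and 5.49 and 3.21 for Cxcr3. Cxcr6 per T-cell marker count was 0.0184 to 0.034 in saline, 0.0451 to 0.0791 in AAV-GFP and 0.0548 to 0.0722 in AAV-GFP-MBNL1Δ. The vector groups overlapped, and their mean log2 ratios were −4.09 ± 0.41 and −4.03 ± 0.21. Their differences from saline were 1.31 and 1.36, and 0.37 and 0.39 without Cd247, where both vector groups overlapped saline.

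Cxcr5 per B-cell marker count was 0.0549, 0.0233 and 0.0459 in saline, 0.069, 0.039 and 0.152 in AAV-GFP, and 0.0752, 0.0851 and 0.0708 in AAV-GFP-MBNL1Δ. AAV-GFP 3 had the highest ratio and AAV-GFP 2 a ratio among the saline values, so AAV-GFP overlapped both other groups. AAV-GFP-MBNL1Δ lay above saline by 0.98 on the log2 scale (exact permutation p = 0.1), a value that came to 0.36 with 2 counts added in place of 0.5. Cxcl16 per macrophage marker count was 0.016 to 0.023 in saline, 0.0312 to 0.044 in AAV-GFP and 0.0205 to 0.0366 in AAV-GFP-MBNL1Δ. Only AAV-GFP and saline did not overlap, with a log2 difference of 0.81.

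**Figure D4:**
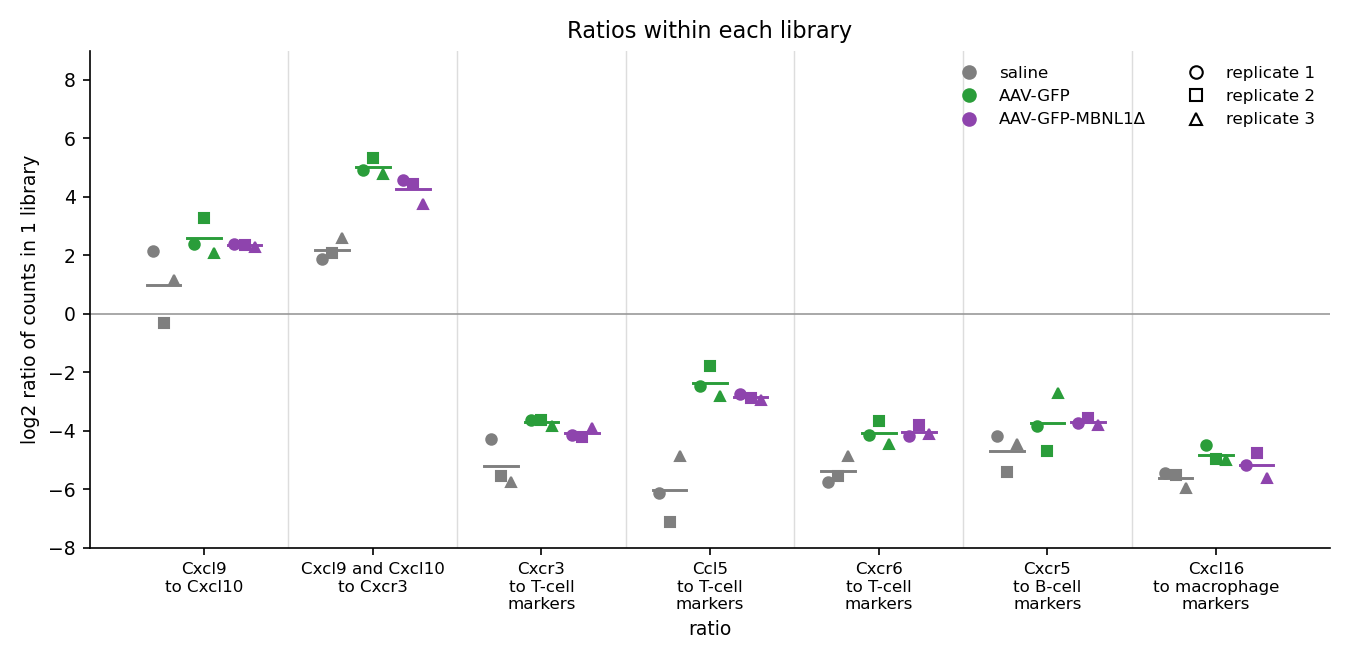
Log2 ratios of counts within each library. Points are libraries, coloured by group with a symbol per replicate, and short lines are group means. The ratios of Cxcl9 and Cxcl10 to Cxcr3 and of Cxcr3 to T-cell markers separate all 3 groups. The Ccl5 and Cxcr6 ratios separate both vector groups from saline. The T-cell sum shown includes Cd247, and without it the Cxcr3 and Cxcr6 ratios of both vector groups overlapped saline.

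The remaining chemokine genes were read as fixed lists. For these lists the DESeq2 and limma-voom counts cover both directions. The shares printed beside them cover genes called higher only, so the counts are not read against those shares. Of 31 other ligands, 22 were tested. In AAV-GFP against saline edgeR called 0 of the 22, and 12 lay above without overlap (14.7% of tested genes). At an unadjusted p under 0.05, 16 were higher (15.6% of tested genes) and 1 lower. DESeq2 called 14 (8.98% of tested genes higher), limma-voom 0 and its weighted form 19 (16.6%), and without AAV-GFP 3 edgeR called 15 higher (14.3%). In AAV-GFP-MBNL1Δ against saline edgeR called 1 of the 22, Ccl25, a ligand of CCR9 (log2 fold change 0.49, adjusted p = 0.0480). There 11 lay above without overlap (22.7% of tested genes), 7 were higher at an unadjusted p under 0.05 (13.1%), and DESeq2 called 6 (8.65% of tested genes higher), limma-voom 0 and its weighted form 8 (15.4%). Between the vectors 8 of 22 fell and Ccl25 rose (0.65, adjusted p = 0.0135), beside 10.3% of tested genes lower and 10.8% higher. Of 20 other receptors, 15 were tested: edgeR called 0 in either comparison with saline. Between the vectors 5 fell (among them Ccr1, Ccr2, Ccr3 and Xcr1), beside 10.3% of tested genes lower. At an unadjusted p under 0.05, 12 receptors were higher in AAV-GFP (15.6% of tested genes) and 2 with the decoy vector (13.1%). DESeq2 called 9 and 1 (8.98% and 8.65% of tested genes higher), limma-voom 0 in both, and its weighted form 13 and 2 (16.6% and 15.4%). The median log2 fold changes were 2.20, 0.66 and −1.85 for the ligands and 3.11, 0.45 and −1.33 for the receptors in the 3 comparisons.

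Cxcl11, the remaining CXCR3 ligand, followed Cxcl9 only in part. Its log2 fold change in AAV-GFP against saline was 1.385 (SE 0.36, adjusted p = 0.0936). It stood at 1.79, 2.26 and 3.73 CPM in saline, at 7.22, 9.40 and 3.68 in AAV-GFP, and at 1.81, 1.89 and 1.92 in AAV-GFP-MBNL1Δ. The AAV-GFP-MBNL1Δ libraries lay within the saline range, where Cxcl9 and Cxcl10 were above it, and Cxcl11 fell by 1.86 (SE 0.37, adjusted p = 0.0137) against AAV-GFP. Between the vectors, the CCL5 receptor genes Ccr1 and Ccr3 fell by 3.25 (SE 0.91, adjusted p = 0.0406) and 3.68 (SE 0.93, adjusted p = 0.0301). Ccr1 stood at 0.257 to 0.347 CPM in saline, 4.02, 13.1 and 0.731 in AAV-GFP, and 1.04, 0.509 and 0.330 in AAV-GFP-MBNL1Δ, where its highest library lay above the lowest of AAV-GFP. Ccr3 stood at 0.0289, 0.121 and 0.182 CPM in saline and at 0.890, 1.86 and 0.133 in AAV-GFP. In AAV-GFP-MBNL1Δ it stood at 0.0451 to 0.0909 CPM, so its values there and in saline rest on few counts. In AAV-GFP-MBNL1Δ against saline Ccr1 and Ccr3 had log2 fold changes of 1.05 and −0.57 without a call, beside the call of Ccl5.

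Other receptors of leukocyte entry ranged widely. Ccr2, the monocyte receptor, stood at 3.36 to 4.36 CPM in saline, 35.8, 108 and 10.3 in AAV-GFP and 4.38 to 9.73 in AAV-GFP-MBNL1Δ, and fell by 2.76 between the vectors (adjusted p = 0.0364). Ccr7, which leads T cells and dendritic cells to lymph nodes, had log2 fold changes of 4.07 and 2.16 against saline with adjusted p-values of 0.0841 and 0.110. Cx3cr1 had 0.73 and 0.01. The homeostatic ligand Cxcl12 lay between 124.6 and 230.5 CPM in all 9 libraries, its receptor Cxcr4 had log2 fold changes of 1.86 and 0.56, and its scavenger Ackr3 lay between 22.5 and 30.3 CPM. Ccr7, Cx3cr1, Cxcl12, Cxcr4 and Ackr3 were called by edgeR in no comparison.

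Genes of the interferon-gamma pathway, which acts upstream of Cxcl9 and Cxcl10, differed in part between the vectors. Ifng gave 0 to 0.0289 CPM in saline, 0.534, 1.82 and 0.111 in AAV-GFP and 0.0752 to 0.236 in AAV-GFP-MBNL1Δ. Irf1 stood at 9.87 to 17.1 CPM in saline, 28.5 to 157 in AAV-GFP and 13.8 to 22.3 with the decoy vector, and fell by 2.099 between the vectors (adjusted p = 0.0371). For Irf1, the AAV-GFP libraries lay above both other groups. It was not called in AAV-GFP-MBNL1Δ against saline (log2 fold change 0.62, adjusted p = 0.527), where Cxcl9 and Cxcl10 rose. Of the 9 pathway genes tested, 1 rose (Jak2, beside 4.76% of tested genes) and 1 fell (Ifngr2, share of genes called lower not given) in that comparison. There 4 lay above saline without overlap (22.7% of tested genes) and 1 below. At an unadjusted p under 0.05, 2 were higher (13.1%) and 1 lower. In either direction DESeq2 called 3 (8.65% of tested genes higher), limma-voom 2 and its weighted form 2 (15.4% higher). Between the vectors 3 fell (among them Irf1 and Socs1) and 1 rose (Jak2), beside 10.3% of tested genes lower and 10.8% higher. In AAV-GFP against saline edgeR called 0, and 5 were higher at an unadjusted p under 0.05 (15.6% of tested genes). There DESeq2 called 5 in either direction (8.98% of tested genes higher), limma-voom 0 and its weighted form 6, also in either direction (16.6% higher). Without AAV-GFP 3, edgeR called 6 higher (14.3%).

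**Figure D5:**
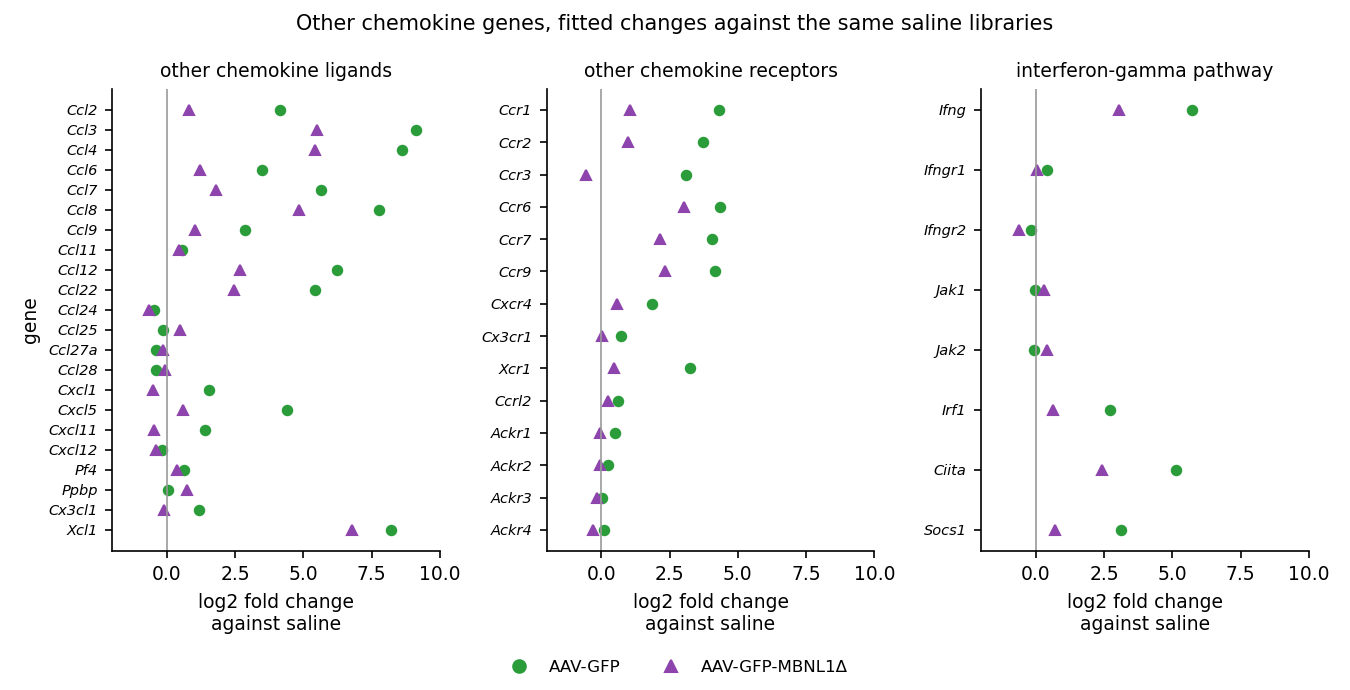
Fitted log2 fold change against saline of genes of 3 lists, with circles for AAV-GFP and triangles for AAV-GFP-MBNL1Δ. Both sets of points use the same saline libraries. For Irf1, Ccr1 and Ccr2 the AAV-GFP point lies well to the right of the AAV-GFP-MBNL1Δ point, and Cxcl12 and Ackr3 lie near 0 for both.

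Of the proteases that act on these proteins, Dpp4, which trims CXCL9 and CXCL10, stood at 8.39 to 10.9 CPM in saline, 11.6 to 12.3 in AAV-GFP and 5.98 to 7.42 in AAV-GFP-MBNL1Δ. The 3 groups did not overlap. It fell by 0.47 against saline (SE 0.13, adjusted p = 0.0476) and by 0.83 against AAV-GFP (SE 0.13, adjusted p = 0.00526). Adam10, which sheds CXCL16, lay between 35.7 and 61.3 CPM and was called in no comparison. Mmp9, another protease of the fixed lists, went the other way from Dpp4. It stood at 1.235 to 1.393 CPM in saline, 0.7562 to 1.895 in AAV-GFP and 2.746 to 4.225 in AAV-GFP-MBNL1Δ. In AAV-GFP-MBNL1Δ it rose by 1.33 against saline (SE 0.32, adjusted p = 0.0354) and by 1.20 against AAV-GFP (SE 0.32, adjusted p = 0.0334).

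For each gene, the 3 genes with the most similar levels over the 9 libraries were taken by Pearson's r of log2 CPM among 12322 genes. Cxcl9 was nearest to Il2rb (r = 0.998), Ncr1 and Nkg7, and Cxcl10 to Nkg7 (r = 0.988), Cd4 and Cxcl9. The nearest genes of Cxcr3 included Tigit (r = 0.998) and Gimap3, and those of Ccl5 were Lck (r = 0.998), Eomes and Skap1. Cxcl13 was nearest to Ms4a1 (r = 0.991), Cd3e and Cd4, and Cxcr5 to Cd6 (r = 0.998), Skap1 and Ikzf3. Cxcl16 was nearest to Ptpn7 (r = 0.999), Ly75 and Ptprc, and Cxcr6 to Ltb (r = 0.995), Ikzf3 and Slamf6. Cxcl14 had other neighbours: Acsl4 (r = 0.973), Txnrd3 and Dennd1b. Acsl4 averaged 36.8 ± 2.49, 38.4 ± 5.44 and 48.1 ± 1.54 CPM (SD, n = 3) in the saline, AAV-GFP and decoy vector libraries. The neighbours of the other 8 genes, such as Il2rb at 0.118 ± 0.0855, 12.1 ± 12.4 and 2.83 ± 1.12 CPM, had their highest mean in AAV-GFP.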

How the data were processed

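RNA was measured in 9 libraries of mouse gastrocnemius, 3 a group. The deposited values are read counts per gene. The submitters' processing notes name cutadapt 2.10, STAR 2.7.5a, HTSeq 0.12.4, DESeq2 1.30.0 and the build mm10. An annotation release or strand setting was not given in the sources used here. The 5 rows that name no gene (16.8% to 18.3% of reads) were left out. Names, positions and exon lengths came from GENCODE M21 (GRCm38), with 55141 identifiers matched.

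Of 30602 genes with a count, 18514 passed edgeR's expression filter. A single edgeR model (version 4.0.16, R 4.3.3) covered all 9 libraries, with TMM scaling, a robust quasi-likelihood F test and 6 residual degrees of freedom. P-values were adjusted by Benjamini-Hochberg over all genes tested within a comparison, with 0.05 as threshold, so each adjusted p of a gene is edgeR's unless another tool is named. The procedure was tested on simulated data. Log ratios were compared by exact permutation over libraries. Alternatives were DESeq2 1.42.0, limma-voom (limma 3.58.1) with and without library weights, other scalings, filters and groups in the fit, a replicate block, 2 counts added to ratios and leaving out each library. Leaving Cd247 out of the T-cell sum was added after the data were seen.

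The 9 genes, the gene lists and the tests were chosen with earlier results of these data known. The naming rule took all 9 genes, 15 other genes fixed by name, list members that complete a count of 5 or fewer and the 3 genes most like each of the 9. Some results are not reported here.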

Additional observations from a re-analysis of the deposited data

How the results depend on the processing

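The number of the 9 genes called in AAV-GFP against saline (0) was 8 with DESeq2, 8 with limma-voom with library weights and 0 to 8 when 1 library was left out. In AAV-GFP-MBNL1Δ against saline (6) it was 0 without a filter on low counts, 1 with limma-voom and 0 to 8 when 1 library was left out. It was 8 with DESeq2 (8.65% of tested genes higher), 7 with library weights (15.4%) and 9 with only the 2 groups compared. In AAV-GFP-MBNL1Δ against AAV-GFP (3) it was 0 without a filter, 0 with only the 2 groups compared, 6 with DESeq2, 1 with limma-voom, 9 with library weights and 0 to 8 when 1 library was left out. The cause was not tested. With the replicate number as a block the counts were 5, 8 and 3. The share of all tested genes is not given for the block, the fit without a filter, the 2-group fit or unweighted limma-voom. Between the vectors it is not given for DESeq2 or library weights either, so those counts are not read against other genes. The main fit called 10.3% of tested genes lower and 10.8% higher between the vectors. Same-numbered libraries deviated together by r of −0.0824 to 0.446, not above 0.1 in every pair, so the block rests on a shared number only. Of 510 alternative fold changes, 2 changed sign: Cxcl14 in AAV-GFP against saline, with a log2 fold change of −0.077 to 0.38 when 1 library was left out (−0.010 without saline 3, −0.077 without AAV-GFP 2). The Cxcr5 to B-cell marker ratio of AAV-GFP-MBNL1Δ against saline was 0.36 with 2 counts added. Without Cd247 in the T-cell sum, chosen after the data were seen, the log2 differences of AAV-GFP and AAV-GFP-MBNL1Δ from saline were 0.56 and 0.14 for Cxcr3, 2.75 and 2.21 for Ccl5 and 0.37 and 0.39 for Cxcr6. Without AAV-GFP 2 the fold changes of AAV-GFP against saline shrank for the 8 genes other than Cxcl14, as in Cxcl16 from 3.85 to 2.66. A filter of 1 CPM in 3 libraries removed Cxcr5. With 4 to 59 counts over the saline group for Cxcl9, Cxcl10, Cxcr3, Ccl5, Cxcr5 and Cxcr6, the size of their fold changes against saline is limited by depth.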
